A study of Mus musculus with 18 samples.

Results

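The citric acid cycle and the oxidation of branched-chain amino acids that feeds it were followed through 37 nuclear genes in mouse kidney. The members were chosen by symbol from the raw count table, which lists 31787 genes. All 37 were found there, and all 37 were among the 21050 genes that passed the count filter, with at least 542 reads (Bckdhb) in every library. They were read in 4 sets. Pyruvate entry holds 6 genes, the cycle itself 20, the branched-chain and propionate steps 9, and the glutamate and aspartate steps 2.

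Whole-transcriptome RNA-seq was done on 18 kidneys in 6 groups of 3, in a mouse study of unilateral ureteral obstruction (UUO), a model of kidney fibrosis in which 1 ureter is tied. Healthy kidneys carried the genotype label - FF (Cdh5-CreERT2;Twist), read here as floxed Twist without Cre. Contralateral (unobstructed) kidneys and WT UUO kidneys each comprised 2 samples labelled + ++, read as Cre without floxed Twist, and 1 labelled - FF, all from the same Twist cross. Conditional knockout (cKO) UUO kidneys were labelled + FF for Cdh5-CreERT2 with Twist, for Cdh5-CreERT2 with Snail, and for GGT-Cre with Myc. The Cdh5 promoter drives Cre in endothelial cells, and GGT-Cre acts in tubular epithelium, so none of the 3 genes was deleted in the whole kidney. The labels call the first 2 lines EndMT cKO, for endothelial-to-mesenchymal transition. The Twist cross was of mixed C57BL6, 129sv and Balb/c strain, and the Snail and Myc lines were mixed C57BL6 and Balb/c, so strain and line cannot be told apart from the Snail and Myc deletions in a comparison with WT UUO. Mice were 12 weeks old, or 11-12 weeks in the Myc line. The length of obstruction, any Cre induction and which kidneys shared an animal are not given in the labels, so p-values measure only the spread between these kidneys.

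In the mitochondrion, pyruvate is imported by a carrier and turned into acetyl-CoA by the pyruvate dehydrogenase complex. Citrate synthase joins acetyl-CoA to oxaloacetate, and the cycle then oxidizes citrate back to oxaloacetate while it hands electrons to the respiratory chain. Leucine, isoleucine and valine lose their amino group and pass through the branched-chain ketoacid dehydrogenase complex, after which leucine carbon leaves as acetyl-CoA and acetoacetate, and isoleucine and valine carbon enters the cycle as succinyl-CoA by way of propionate. Proximal tubule cells are rich in mitochondria and rely on this oxidation to drive reabsorption.

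Library totals ran from 52637555 counts (Twist cKO kidney 3) to 91340782 (contralateral kidney 3). Mitochondrial ribosomal RNA took 44.6% to 50.3% of counts in the 6 unobstructed kidneys and 19.2% to 34.9% in the 12 obstructed ones, and levels are therefore given in counts-per-million (CPM) on library sizes scaled by TMM. Twist1 stood at 0.378, 0.596 and 0.307 CPM in Twist cKO kidneys against 2.13, 4.49 and 1.14 in WT UUO. Snai1 stood at 1.98, 1.69 and 2.27 in Snail cKO against 3.20, 3.44 and 2.40, and Myc at 18.8, 19.8 and 10.8 in Myc cKO against 22.1, 23.8 and 21.8. Each targeted gene was below WT UUO in all 3 kidneys of its own line. Snai1 was also below its WT UUO range in Twist cKO (at most 2.16) and Myc cKO kidneys (at most 1.92). Myc read 19.6, 17.9 and 29.2 in Twist cKO and 24.7, 22.1 and 15.3 in Snail cKO kidneys, overlapping its Myc cKO values. Reads outside a deleted exon are still counted, so these levels are a weak check of the labels.

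In healthy kidney the most abundant member per length was Mdh1, the cytosolic malate dehydrogenase of the malate-aspartate shuttle, at 402 ± 90.0 CPM per kb of exon (SD, n = 3). Idh1, the cytosolic NADP-dependent isocitrate dehydrogenase, followed at 193 ± 21.2, then the succinate dehydrogenase subunits Sdhd at 164 ± 30.8 and Sdha at 148 ± 15.9. The lowest were Pdhx, the protein that ties dihydrolipoamide dehydrogenase into the pyruvate dehydrogenase complex, at 9.83 ± 2.46 and Mccc1, the biotin-bearing subunit of methylcrotonyl-CoA carboxylase in leucine breakdown, at 8.19 ± 2.51. Mdh1 stood apart from Idh1 by more than their SDs, whereas Idh1 and Sdhd overlapped within theirs. In WT UUO kidney Mdh1 was still first at 54.7 ± 7.88 and Mccc1 still last at 1.90 ± 0.307, while citrate synthase (Cs) stood at place 13 against place 27 of 37 in healthy kidney.

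All members were lower in obstructed kidney. In WT UUO against healthy kidney all 37 genes fell with TMM scaling, a direction that Cs lost under scaling by library totals alone (edgeR quasi-likelihood test with Benjamini-Hochberg adjustment, adjusted p under 0.05), with a median log2 fold change of -1.94, a 3.84-fold drop. The background was 27.1% of the 21050 tested genes called lower and 29.2% called higher, with a median of 0.05. The 3 WT UUO kidneys lay below all 3 healthy kidneys for each of the 37 members, against 29.7% of all genes. Changes ran from -0.71 for Cs to -2.88 for Mdh1, with standard errors (SE) between 0.13 and 0.31. In bulk tissue, fewer cells of a type and less RNA per cell cannot be told apart. Of 12 proximal tubule markers 11 were lower in the same comparison, with a median of -3.92, and their summed level ran from 853 to 2111 CPM in WT UUO against 15154 to 17672 in healthy kidney, with no marker at 0 in any library. Loop and distal tubule markers were lower for 7 of 8 genes and collecting duct markers for 5 of 6. Markers of tubular injury (8 of 8), fibroblasts (8 of 8), macrophages (7 of 7 tested) and urothelium (6 of 6) were higher, endothelial markers were lower for 3 and higher for 2 of 8, and none of 6 adipocyte markers passed. The part of these shifts in the members' fall was not tested.

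**Figure D1:**
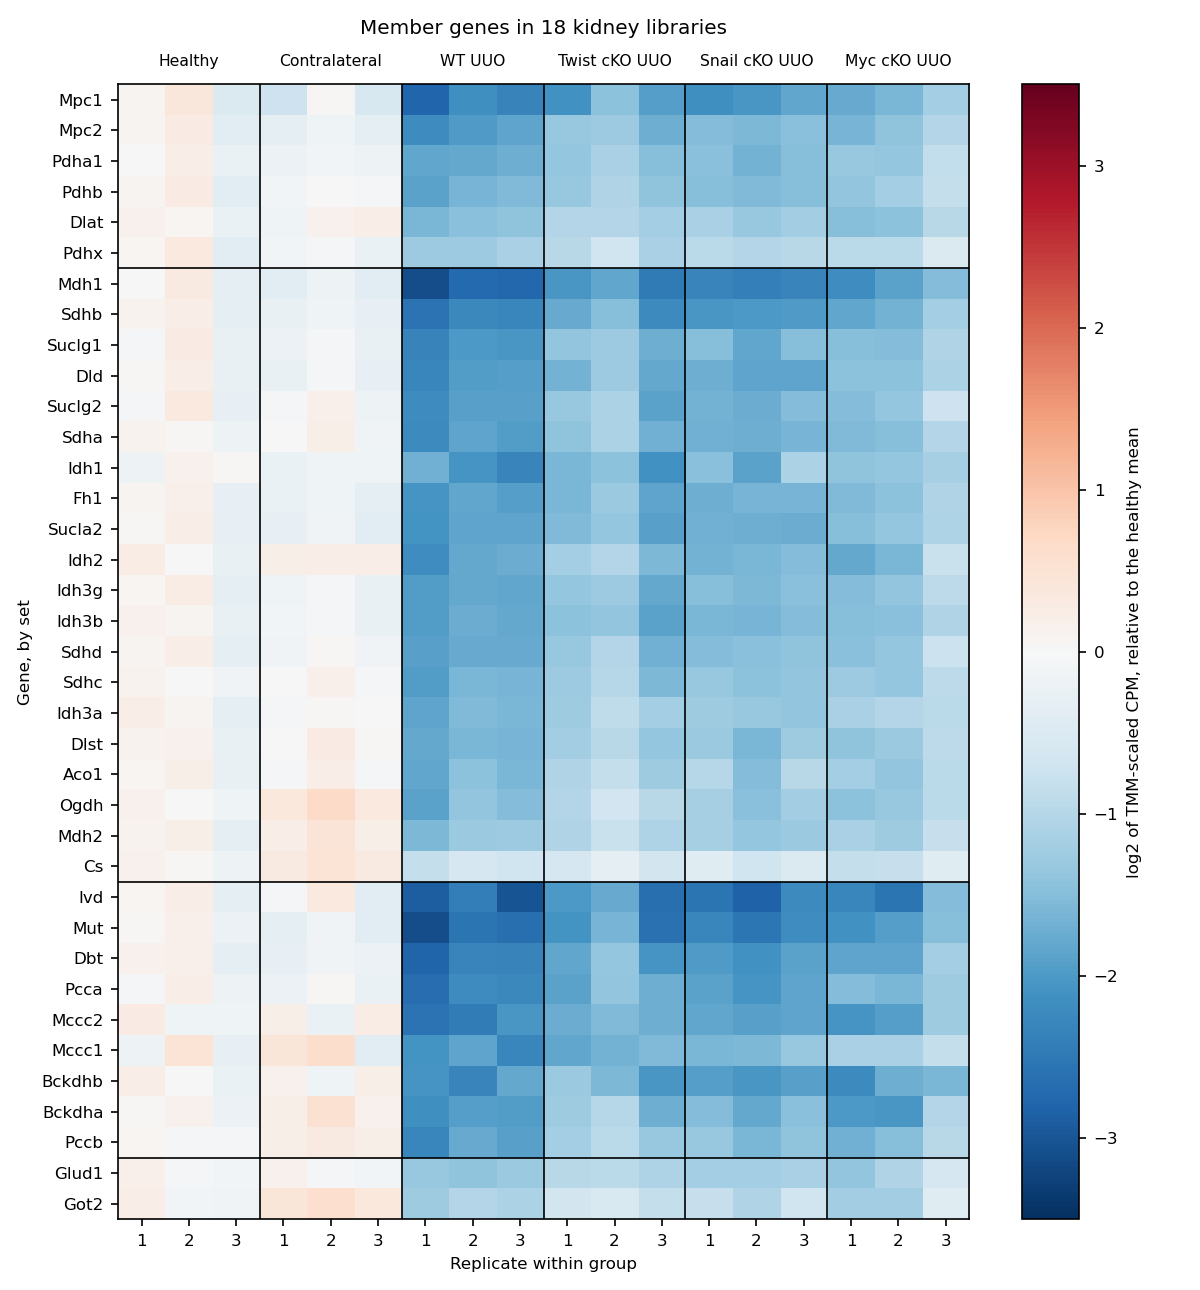
Heat map of the 37 member genes (rows, in 4 sets separated by lines: pyruvate entry, cycle, branched-chain and propionate steps, glutamate and aspartate steps) in 18 kidney libraries (columns, 3 per group); colour is log2 of TMM-scaled CPM minus the mean of the healthy kidneys. The 12 obstructed kidneys are blue in every row, and Myc cKO kidney 3 is the palest of its group throughout.

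The mean of the 37 log2 CPM values, relative to the healthy mean, was 0.09, 0.16 and -0.25 in the 3 healthy kidneys and -0.05, 0.10 and -0.10 in the contralateral ones. It was -2.08, -1.82 and -1.85 in WT UUO, -1.40, -1.17 and -1.64 in Twist cKO, -1.55, -1.68 and -1.50 in Snail cKO, and -1.54, -1.46 and -0.99 in Myc cKO. No obstructed kidney reached the unobstructed range, and every knockout kidney lay above every WT UUO kidney. The members took 1.17% ± 0.0667 (SD, n = 3) of counts outside the mitochondrial genome in healthy kidney, 1.16% ± 0.0114 in contralateral and 0.396% ± 0.0323 in WT UUO kidney. In the knockouts this share was 0.563% ± 0.0715 for Twist, 0.503% ± 0.0363 for Snail and 0.587% ± 0.100 for Myc. Members mostly followed one another from kidney to kidney: healthy kidney 3 was lowest of its group for 36 of 37 genes, Twist cKO kidney 2 highest for 34 and Myc cKO kidney 3 highest for all 37.

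**Figure D2:**
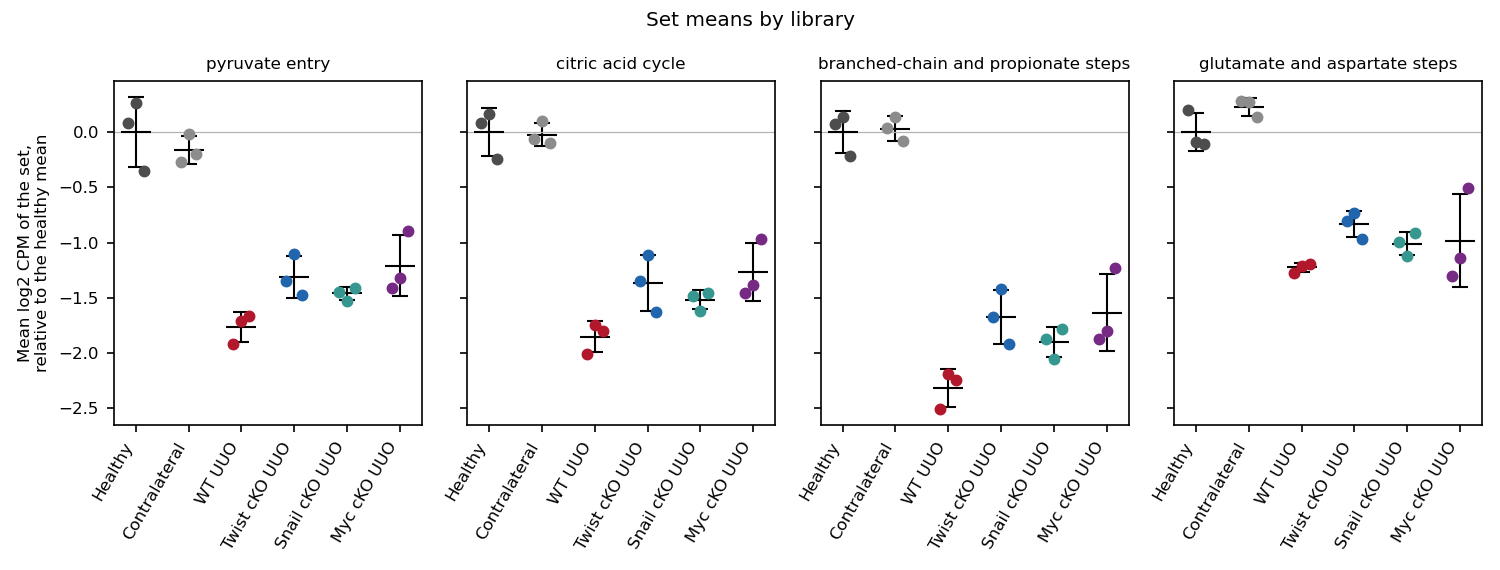
Mean log2 CPM of each of the 4 sets in each kidney (points), relative to the healthy mean, with the group mean (long bar) and SD (error bar, n = 3). Branched-chain and propionate genes reach the lowest values in every obstructed group, and the Myc cKO group has kidney 3 above the other two in each panel.

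The 6 genes of pyruvate entry fell by a median of 1.74 on the log2 scale. The pyruvate carrier of the inner membrane is made of Mpc1 and Mpc2. Mpc1 (chr17:8282904-8297661, mm10) was at 71.7, 88.2 and 47.5 CPM in the healthy kidneys, 40.3, 68.7 and 45.4 in the contralateral and 9.87, 15.2 and 13.2 in the WT UUO kidneys. It was at 15.4, 24.7 and 17.7 in Twist, 15.2, 16.3 and 19.1 in Snail and 19.8, 22.3 and 29.4 in Myc cKO kidneys. Mpc1 had the largest fall of the set, with a log2 fold change of -2.44 (SE 0.27, adjusted p 2.86e-06), and WT UUO kidneys lay below every other kidney, although the lowest Twist and Snail cKO values came close. Mpc2 fell by 4.07-fold. In the annotation 23.1% of the exon bases of Mpc1 also lie in 4930506C21Rik on the other strand. Such overlap also covers 16.1% of the exon bases of Pdha1 (Map3k15) and 9.0% of those of Got2 (Gm45760).

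The pyruvate dehydrogenase complex is built from the E1 subunits Pdha1 and Pdhb, the acetyltransferase Dlat, the binding protein Pdhx and dihydrolipoamide dehydrogenase (Dld). Pdha1 was at 362, 429 and 308 CPM in healthy kidneys, 314, 337 and 319 in contralateral ones, and at 103, 105 and 111 in WT UUO kidneys, a change of -1.78 ± 0.14 (log2, SE). In the knockouts it was at 143, 164 and 129 (Twist), 131, 115 and 129 (Snail) and 144, 142 and 199 (Myc). Its WT UUO values were tight and below those of every other kidney. Pdhb changed by -1.70 and Dlat by -1.49. Pdhx had the smallest change of the set, -1.25 (SE 0.17, adjusted p 1.22e-05), and was at 39.6, 47.8 and 28.5 CPM in healthy kidneys, 35.5, 36.0 and 31.9 in contralateral ones and 15.7, 15.6 and 17.3 in WT UUO ones. Its values were 19.4, 23.2 and 17.1 in Twist, 19.8, 18.6 and 19.2 in Snail and 19.8, 19.6 and 26.5 in Myc cKO, so that only the Twist group overlapped WT UUO.

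Among the 20 cycle genes the median log2 fold change in WT UUO against healthy kidney was -1.89. Citrate synthase, which opens the cycle, changed least: Cs (chr10:128337734-128362479) was at 193, 179 and 152 CPM in healthy, 215, 241 and 216 in contralateral, then 96.9, 116 and 108 in WT UUO kidneys. Its knockout values were 116, 139 and 112 in Twist, 129, 107 and 122 in Snail and 98.1, 98.8 and 130.5 in Myc cKO. The change was -0.71 (SE 0.13, adjusted p 0.00028), and all obstructed kidneys lay below all unobstructed ones. When libraries were scaled by their totals alone, Cs was instead higher in WT UUO, by 0.38 (adjusted p 0.00256), a setting that raises the median of all genes by 1.07. Aconitase 1 (Aco1), the cytosolic isomerase of citrate, fell by 3.08-fold.

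Of the isocitrate dehydrogenases, the NAD-dependent mitochondrial enzyme is made of Idh3a, Idh3b and Idh3g, while Idh1 and Idh2 use NADP in the cytosol and the mitochondrion. Idh3a was at 146, 133 and 100.3 CPM in healthy, 118, 129 and 123 in contralateral, then 34.6, 43.1 and 41.0 in WT UUO kidneys. It was at 52.9, 67.0 and 54.6 in Twist, 52.3, 49.6 and 47.9 in Snail and 57.0, 61.2 and 64.8 in Myc cKO kidneys, all above WT UUO and below the unobstructed range. Idh3a fell by 3.19-fold, Idh3b by 3.57-fold and Idh3g by 3.65-fold. Idh1 was at 469, 584 and 547 CPM in healthy kidneys, 449.6, 475 and 479 in contralateral ones and 167, 126 and 106 in WT UUO ones. In the knockouts Idh1 was at 176, 197 and 122 (Twist), 191, 144 and 248 (Snail) and 198, 209 and 238 (Myc). Twist and Snail cKO kidneys overlapped WT UUO, and Idh1 was the only member whose highest WT UUO value was in kidney 1. Idh2 read 402, 329 and 279 CPM in healthy, 381, 392 and 390.0 in contralateral, 73.8, 96.4 and 99.2 in WT UUO, 145, 163 and 112 in Twist, 106, 110.5 and 115 in Snail and 96.2, 110.1 and 196 in Myc cKO kidneys. Only the Myc cKO group overlapped WT UUO for Idh2. The changes of Idh1 and Idh2 were -2.00 ± 0.21 and -1.91 ± 0.23 (log2, SE).

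The 2-oxoglutarate dehydrogenase complex consists of Ogdh, the succinyltransferase Dlst and the shared subunit Dld, which also serves the pyruvate and branched-chain complexes. Ogdh was at 452, 411 and 371 CPM in healthy, 529.6, 647 and 517 in contralateral, then 113, 156 and 142 in WT UUO kidneys, then 203, 259 and 210.0 in Twist, 184, 147 and 178 in Snail and 151, 163 and 212 in Myc cKO. Contralateral kidneys were the highest and WT UUO kidneys among the lowest, with Snail and Myc cKO values overlapping them. Dld was at 264, 303 and 213 in healthy, 215, 248 and 209 in contralateral, 53.2, 66.2 and 67.2 in WT UUO, 82.3, 106 and 74.7 in Twist, 78.6, 71.4 and 71.5 in Snail and 95.1, 94.3 and 119 in Myc cKO kidneys. WT UUO was lowest, just below Snail cKO. The fall of Dld by 4.18-fold in WT UUO against healthy kidney stood beside 3.0-fold for Ogdh and 3.19-fold for Dlst.

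Succinyl-CoA ligase pairs the common subunit Suclg1 with Suclg2 (GTP-forming) or Sucla2 (ATP-forming). Suclg1 was at 193, 244 and 166 CPM in healthy, 171, 191 and 166 in contralateral, then 39.1, 49.0 and 48.1 in WT UUO kidneys, and at 75.8, 81.8 and 60.3 in Twist, 70.5, 56.7 and 70.4 in Snail and 70.5, 69.4 and 95.3 in Myc cKO kidneys. Every knockout value exceeded every WT UUO value. Suclg2 read 257, 344 and 223 in healthy, 259, 304 and 238 in contralateral, 59.2, 73.1 and 72.4 in WT UUO, 109, 126 and 74.3 in Twist, 86.3, 80.7 and 94.2 in Snail and 94.2, 106 and 165 in Myc cKO kidneys. Sucla2 read 214, 243 and 170.3 in healthy, 171, 189 and 159.8 in contralateral, 48.7, 57.2 and 58.1 in WT UUO, 70.5, 80.3 and 55.7 in Twist, 64.3, 63.3 and 62.5 in Snail and 73.9, 80.4 and 98.6 in Myc cKO kidneys. WT UUO was lowest for both, with only Twist cKO overlapping it for Sucla2. The 3 genes fell by 4.42-fold, 4.03-fold and 3.83-fold in WT UUO.

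Succinate dehydrogenase is both a cycle enzyme and complex II of the respiratory chain, with Sdha and Sdhb in its catalytic arm and Sdhc and Sdhd as its membrane anchor. Sdha was at 665, 632 and 539 CPM in healthy, 617, 697 and 558 in contralateral, 130.0, 168 and 158 in WT UUO, 229, 285 and 190.0 in Twist, 191, 188 and 199 in Snail and 209, 219 and 299 in Myc cKO kidneys. Sdhb, the iron-sulfur subunit, was at 275, 295 and 198 in healthy, 209, 229 and 206 in contralateral, 42.4, 53.1 and 52.3 in WT UUO, 74.3, 89.8 and 54.2 in Twist, 60.9, 62.9 and 63.5 in Snail and 71.5, 80.6 and 109.8 in Myc cKO kidneys. Both were lowest in WT UUO without overlap with any other group. The log2 fold changes in WT UUO against healthy kidney were -2.01 ± 0.17 for Sdha, -2.38 ± 0.20 for Sdhb, -1.72 ± 0.15 for Sdhc and -1.82 ± 0.19 for Sdhd (SE). Fumarase (Fh1), the next enzyme, changed by -1.94 ± 0.16.

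Mdh1 (chr11:21556787-21572367, mm10) had the largest fall of all 37 members. It was at 1015, 1271 and 809.5 CPM in the healthy, 791, 891 and 782 in the contralateral and 117, 153 and 152 in the WT UUO kidneys, a log2 fold change of -2.88 (SE 0.21, adjusted p 7.54e-08), or 7.34-fold. Twist cKO kidneys had 246, 289 and 184, Snail cKO kidneys 204, 194 and 205 and Myc cKO kidneys 223, 277 and 353, all above WT UUO. Mdh2, the mitochondrial enzyme that closes the cycle, was at 151, 160.1 and 113 in healthy, 163, 191 and 162 in contralateral, then 46.8, 56.3 and 57.7 in WT UUO kidneys, a fall of 2.64-fold. In the knockouts Mdh2 was at 66.9, 81.0 and 66.2 (Twist), 63.0, 54.7 and 56.9 (Snail) and 63.2, 58.8 and 79.6 (Myc). The ratio of Mdh1 to Mdh2 in CPM per kb was 10.1 ± 0.854 (SD, n = 3) in healthy, 6.64 ± 0.142 in contralateral and 3.63 ± 0.145 in WT UUO kidneys. It was 4.63 ± 0.683 in Twist, 4.80 ± 0.272 in Snail and 5.86 ± 0.852 in Myc cKO kidneys. Each of these 5 groups lay wholly below the healthy kidneys (2-sided exact permutation test, p = 0.1, the smallest that 3 against 3 allows). Such ratios were computed for 9 pairs of members in each group against healthy kidney, and none can go below this p. In WT UUO it was also reached by Mpc1 to Mpc2 (1.27 ± 0.103 in healthy, 0.958 ± 0.146 in WT UUO), Pcca to Pccb (0.341 ± 0.0554 and 0.258 ± 0.00953) and Sdhb to Sdha (0.766 ± 0.0903 and 0.597 ± 0.0143), so the smallest p is not particular to Mdh1 and Mdh2. A ratio is free of the library scaling, and this one was the lowest in WT UUO, again without overlap.

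**Figure D3:**
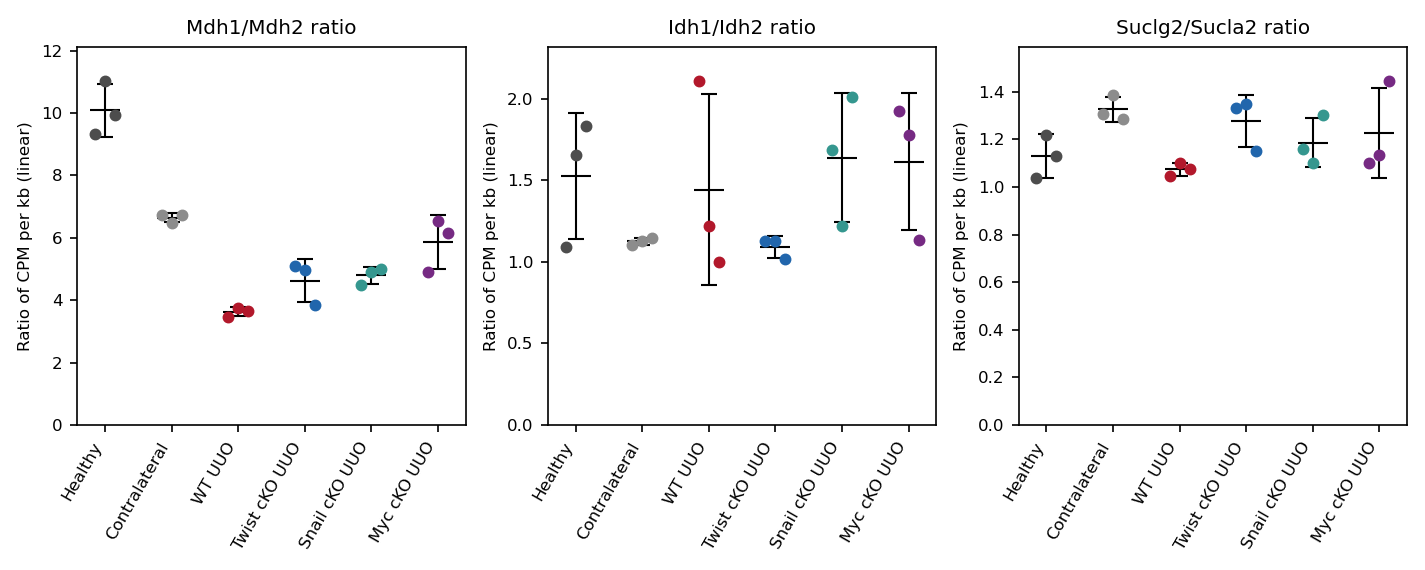
Ratios of CPM per kb of exon in each kidney (points) for 3 pairs of related cycle genes, with group mean and SD (n = 3). The Mdh1 to Mdh2 ratio steps down from about 10.1 in healthy to 3.63 in WT UUO kidneys, whereas the groups overlap for Idh1 to Idh2.

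The Idh1 to Idh2 ratio was 1.53 ± 0.388 in healthy and 1.44 ± 0.585 in WT UUO kidneys, with overlapping values (exact permutation p = 0.9). For Suclg2 to Sucla2 it was 1.13 ± 0.0920 and 1.08 ± 0.0273 (exact permutation p = 0.5). Between healthy and WT UUO kidneys neither of these ratios differed by more than the spread. Contralateral kidneys had a Suclg2 to Sucla2 ratio of 1.33 ± 0.0530, wholly above both the healthy (exact permutation p = 0.1) and the WT UUO kidneys.

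The 9 branched-chain and propionate genes had the lowest median, -2.34 in WT UUO against healthy kidney, with single values between -1.97 and -2.77. Isovaleryl-CoA dehydrogenase (Ivd, chr2:118861954-118882909), a leucine enzyme, was at 256, 286 and 198 CPM in healthy, 239, 311 and 185 in contralateral, then 32.9, 45.8 and 29.8 in WT UUO kidneys. Its knockout values of 60.9, 72.0 and 39.2 in Twist, 41.3, 34.3 and 51.8 in Snail and 50.4, 41.1 and 85.7 in Myc cKO kidneys overlapped WT UUO in each line. Ivd changed by -2.77 (SE 0.31, adjusted p 3.38e-06), a 6.82-fold fall. The branched-chain ketoacid dehydrogenase genes Bckdha, Bckdhb and Dbt fell by 4.03-fold, 4.15-fold and 5.56-fold. For Bckdha 61.7% of exon bases also lie in B3gnt8 on the other strand, and the strand setting of the counting is not given in the sources used here, so that its reads may hold some of B3gnt8.

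Mccc1 and Mccc2 form methylcrotonyl-CoA carboxylase of leucine breakdown. Mccc1 was at 76.7, 121 and 71.2 CPM in healthy, 117, 135 and 66.4 in contralateral, 20.4, 24.4 and 17.7 in WT UUO, 24.7, 27.8 and 30.1 in Twist, 29.0, 29.1 and 35.0 in Snail and 39.6, 40.0 and 48.6 in Myc cKO kidneys. Unobstructed kidneys varied widely, yet none reached down to the obstructed ones. Mccc1 fell by 4.30-fold and Mccc2 by 5.07-fold.

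Propionyl-CoA carboxylase (Pcca and Pccb) and methylmalonyl-CoA mutase (Mut) carry propionate carbon to succinyl-CoA. Pcca (chr14:122534324-122891100) was at 105, 127 and 95.2 in healthy, 93.2, 111 and 92.2 in contralateral, 17.2, 23.5 and 22.7 in WT UUO, 29.8, 41.2 and 33.4 in Twist, 29.4, 26 and 30.3 in Snail and 38.1, 35.6 and 45.7 in Myc cKO kidneys. Pccb (chr9:100982032-101034898) was at 179, 166 and 166 in healthy, 196, 209.7 and 197 in contralateral, 34.8, 50.4 and 45.5 in WT UUO, 74.0, 88.8 and 68.3 in Twist, 68.0, 55.8 and 63.9 in Snail and 53.6, 60.6 and 86.4 in Myc cKO kidneys. WT UUO was lowest for both, with no overlap. Pcca fell by 5.17-fold, Pccb by 3.91-fold and Mut by 6.75-fold.

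Glutamate dehydrogenase (Glud1), which releases 2-oxoglutarate from glutamate, and Got2, the mitochondrial aspartate aminotransferase, were, with Cs and Pdhx, the 4 members that fell least. Glud1 was at 491, 414 and 409 CPM in healthy, 483, 419.9 and 409.8 in contralateral, 176, 164 and 179 in WT UUO, 224, 228 and 205 in Twist, 191, 192 and 198 in Snail and 167, 209 and 289.7 in Myc cKO kidneys, and changed by -1.34 ± 0.15 (log2, SE). Got2 was at 141, 111 and 109.9 in healthy, 160.5, 182 and 154 in contralateral, 51.1, 59.2 and 56.1 in WT UUO, 76.5, 83.2 and 66.9 in Twist, 69.1, 57.3 and 74.4 in Snail and 51.2, 51.6 and 89.1 in Myc cKO kidneys, and changed by -1.12 ± 0.19. Obstructed and unobstructed kidneys did not overlap for either gene.

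**Figure D4:**
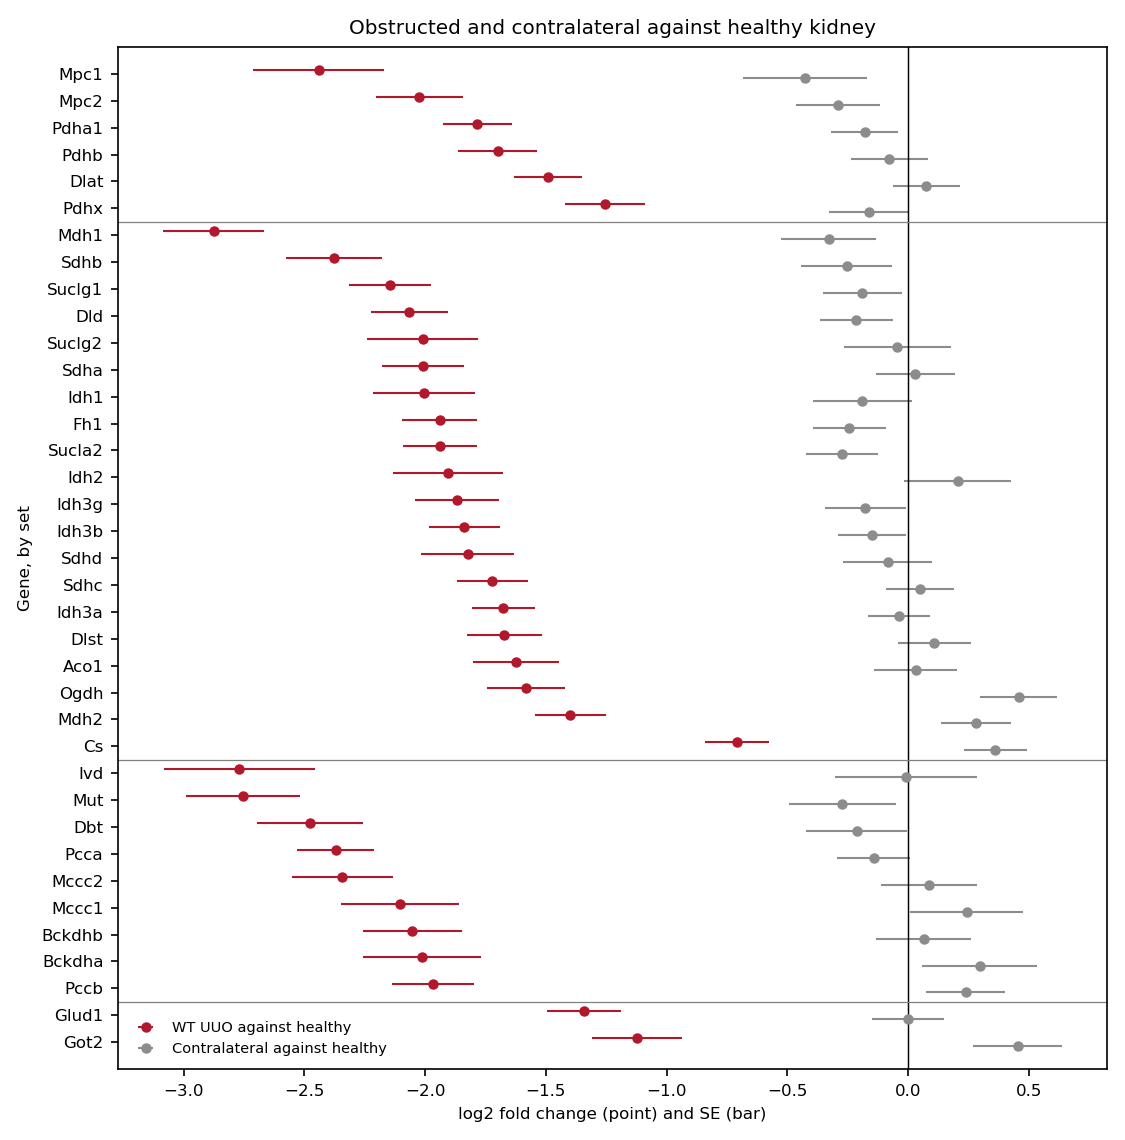
Log2 fold change (points) and SE (bars) from the edgeR fit for each member in WT UUO against healthy kidney (red) and contralateral against healthy kidney (grey), by set. All red points lie left of 0, from -2.88 for Mdh1 to -0.71 for Cs, and the grey points scatter around 0.

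Against the contralateral kidneys, too, all 37 members were lower in WT UUO (background 26% of genes lower), with a median of -1.81 and a range from -2.76 for Ivd to -1.07 for Cs, and no member overlapped between these groups (background 29.8% wholly lower). This comparison shares the WT UUO kidneys with the one above. Between contralateral and healthy kidneys no member passed the test in either direction (background 0.299% lower and 1.96% higher), and the median was -0.04. An unadjusted p under 0.05 was found for 3 members, with no share of all genes given at that threshold. DESeq2 and the other settings tried also called none. Cs, Ogdh, Mdh2, Pccb and Got2 had contralateral values wholly above healthy ones. These 5 of 37 members are a share near the background of 12.2% of genes. Their log2 differences were 0.36, 0.46, 0.28, 0.24 and 0.45, with adjusted p between 0.145 and 0.493. None had contralateral values wholly below healthy ones, against 8.29% of genes.

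For genes that moved together, the 250 bases before the transcription start were searched on both strands for 7 motifs, in RefSeq promoters of GRCm38.p6, where 33 of the 37 members had an entry and Idh3a, Sdhc, Dbt and Mut had none. A GC box (GGGCGG) was found in 21 of the 33 members, 63.6%, against 35.4% of 27025 genes, and CCAAT in 19, 57.6% against 37.5%. TATAAA was found in 1 member (Got2), 3.03% against 14.3%. The NRF1 core GCATGCGC was in the windows of Glud1, Ogdh, Pccb and Sdhb, 12.1% of members against 2.56% of genes. The ETS core CCGGAAG was in Glud1, Idh3g, Mpc1 and Sdhd, 12.1% against 7.83%, and the E-box CACGTG, a motif bound by Myc among other factors, in Mccc2 and Ogdh, 6.06% against 6.86%. The ERR half-site AAGGTCA was in none of these windows, against 4.7% of genes. These matches describe the letters in a window and were not tested. Some windows overlap annotated exons, in all 250 bases for Mpc2 and Mdh1 and in 220 for Bckdha. Genes with more than 1 entry, among members Ogdh, Idh1, Bckdhb, Pcca and Mpc1, were counted if any of their windows matched. Below are 4 windows, written 5′ to 3′ on the gene's strand with all motif matches in capitals, chosen to show the member that fell least (Cs, chr10:128337477-128337726, plus strand), the one that differed most in the Twist cKO (Pccb, chr9:101034885-101035134, minus strand), an E-box (Mccc2, chr13:100015640-100015889, minus strand) and a window with both NRF1 and ETS cores (Glud1, chr14:34310477-34310726, plus strand).
Cs: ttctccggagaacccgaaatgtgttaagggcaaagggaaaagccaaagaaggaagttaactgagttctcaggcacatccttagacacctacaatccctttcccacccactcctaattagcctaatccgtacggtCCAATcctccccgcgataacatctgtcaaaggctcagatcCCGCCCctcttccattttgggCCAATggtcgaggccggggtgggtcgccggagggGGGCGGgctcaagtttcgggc
Pccb: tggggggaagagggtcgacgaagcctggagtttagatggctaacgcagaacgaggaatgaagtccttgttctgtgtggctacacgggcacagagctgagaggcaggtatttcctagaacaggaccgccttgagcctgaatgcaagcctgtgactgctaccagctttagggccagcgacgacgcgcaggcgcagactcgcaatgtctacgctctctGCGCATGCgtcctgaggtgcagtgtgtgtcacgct
Mccc2: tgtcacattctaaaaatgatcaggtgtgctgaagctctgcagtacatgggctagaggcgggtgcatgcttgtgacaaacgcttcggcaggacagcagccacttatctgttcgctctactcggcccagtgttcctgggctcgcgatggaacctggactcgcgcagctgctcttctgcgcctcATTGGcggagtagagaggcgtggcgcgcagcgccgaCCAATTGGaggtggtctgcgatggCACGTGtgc
Glud1: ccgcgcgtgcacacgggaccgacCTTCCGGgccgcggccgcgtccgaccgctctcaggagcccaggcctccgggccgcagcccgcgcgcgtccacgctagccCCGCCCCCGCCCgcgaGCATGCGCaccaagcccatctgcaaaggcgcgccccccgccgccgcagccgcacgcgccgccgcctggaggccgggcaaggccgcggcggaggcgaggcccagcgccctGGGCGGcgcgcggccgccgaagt
Cs has 2 GC boxes and 2 CCAAT boxes and neither an NRF1 core nor an E-box. Pccb has a single NRF1 core near its start, and Mccc2 has its E-box and 3 CCAAT boxes counting both strands, 2 of which overlap. Glud1 has 3 GC boxes, an NRF1 core and an ETS core and no CCAAT box.

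In the obstructed knockouts the estimates of all members lay above WT UUO, and the number that passed the test was 7, 0 and 23. The 3 comparisons share the WT UUO kidneys, so they are not independent of each other. In Twist cKO against WT UUO 7 of 37 members were called higher and none lower (background 2.97% higher, 2.31% lower). In Snail cKO no member was called in either direction (background 0.162% higher, 0.138% lower), and in Myc cKO 23 were called higher and none lower (background 5.31% higher, 6.91% lower). The median log2 fold changes were 0.49, 0.34 and 0.62, against -0.0074, -0.0046 and 0.0012 for all genes, and all 37 estimates were positive in each line, although 1 in Snail and 4 in Myc cKO turned negative under scaling by library totals. Knockout and WT UUO values did not overlap for 27, 28 and 27 members, against 15.7%, 12.8% and 15.3% of all genes. By Ddx3y and Xist, kidneys 1, 2 and 3 read as female, male and female in WT UUO and Twist cKO. In Snail and Myc cKO they read as male, female and male, so sex was not balanced between these lines and WT UUO. With sex as a covariate the median log2 fold changes were 0.48 in Twist, 0.27 in Snail and 0.54 in Myc cKO.

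**Figure D5:**
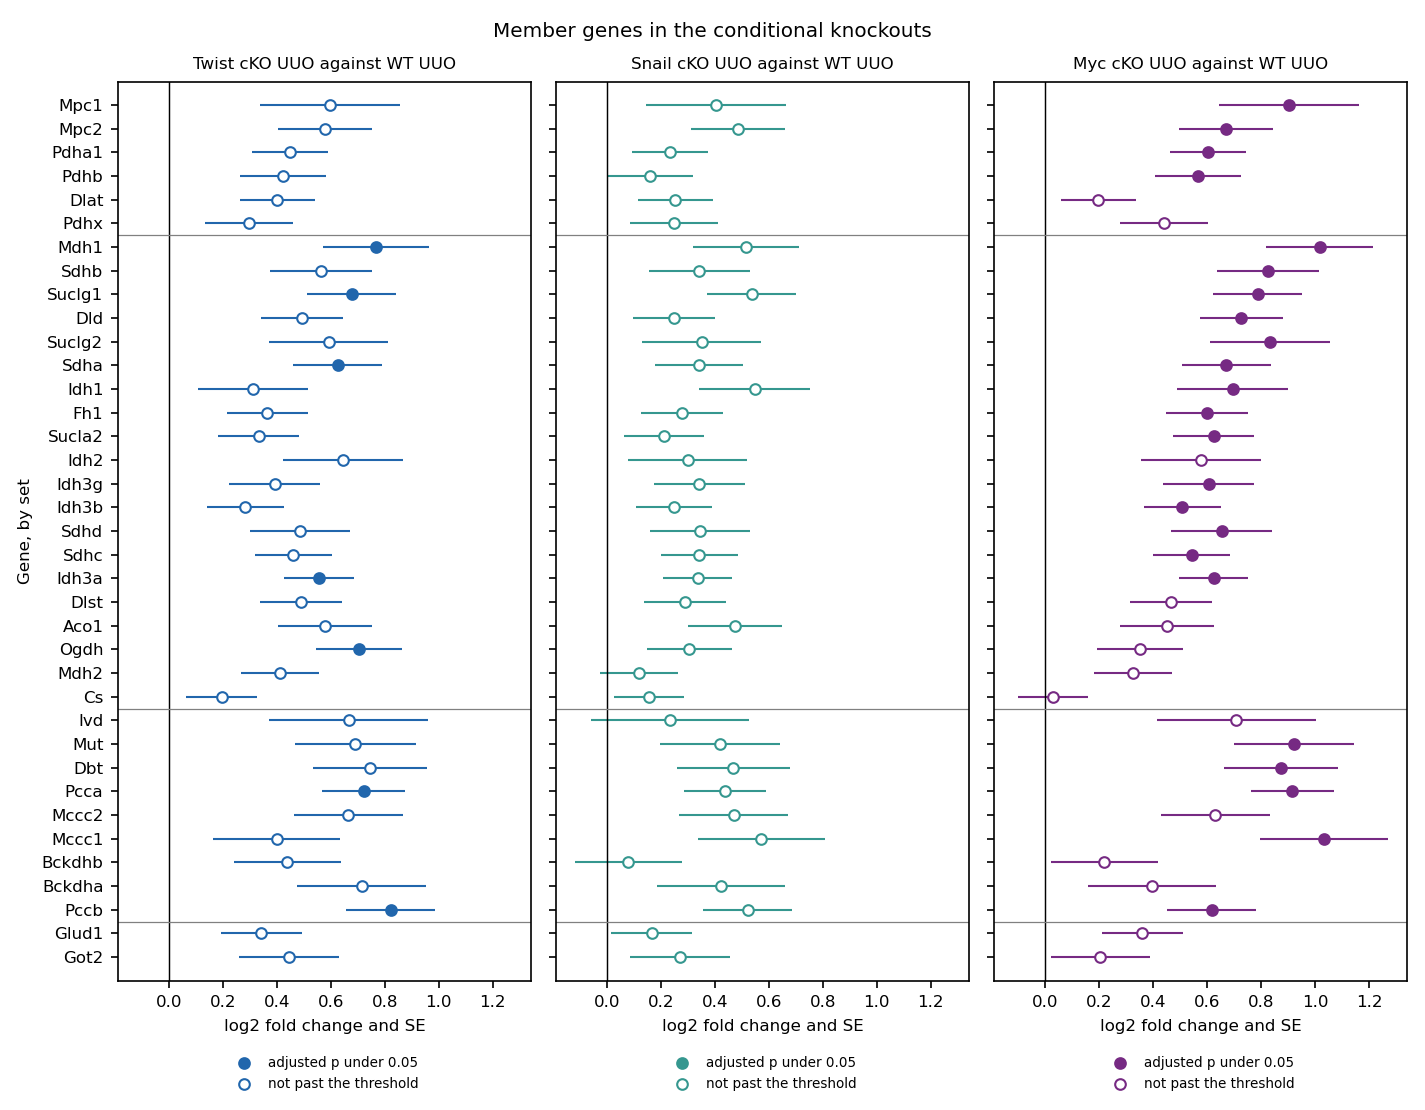
Log2 fold change (points) and SE (bars) of each member in 3 conditional knockouts against WT UUO, by set; filled points passed the edgeR test at an adjusted p under 0.05. Filled points number 7 in the Twist panel, 0 in the Snail panel and 23 in the Myc panel.

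Called higher in the Twist cKO were Pccb, 0.82 (SE 0.16, adjusted p 0.0202), and Pcca, 0.72 (SE 0.15, adjusted p 0.0227), the 2 subunits of propionyl-CoA carboxylase. The other 5 were cycle genes: Ogdh at 0.71 (adjusted p 0.0278), Idh3a at 0.56 (adjusted p 0.029), Suclg1 at 0.68 (adjusted p 0.0334), Mdh1 at 0.77 (adjusted p 0.0383) and Sdha at 0.63 (adjusted p 0.0416). In this fit none of the 6 pyruvate entry genes and neither Glud1 nor Got2 passed. Cs was the lowest at 0.20 (SE 0.13, adjusted p 0.402). At an unadjusted p under 0.05 the count was 32 of 37, and the share of all genes at that threshold is not given here. The calls depended on single kidneys. No member was called without WT UUO kidney 1 or without Twist cKO kidney 2, where the lowest adjusted p was 0.101 and 0.0867, and 4 were called without WT UUO kidney 2 or without Twist cKO kidney 1. The counts were 19 by DESeq2 and 18 with sex as a covariate, each including all 7 and also Mpc2 and Pdha1. With only the 2 groups in the fit 7 were called, of which 4 were among those above. The others there were Pdha1, Dlat and Got2. No share of all genes called is given for these settings or for the fits with a kidney left out.

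In the Snail cKO estimates ran from 0.08 for Bckdhb to 0.57 for Mccc1. Suclg1 had the smallest adjusted p, with 0.54 (SE 0.16, adjusted p 0.154), followed by Pccb at 0.52 (SE 0.16, adjusted p 0.165) and Pcca at 0.44 (SE 0.15, adjusted p 0.202). An unadjusted p under 0.05 was found for 12 of 37 members, again without a share of all genes to set beside it. DESeq2 and each fit that left out 1 kidney also called none. The values of Suclg1, Pccb and Pcca in the 3 Snail cKO kidneys nevertheless all lay above those of the 3 WT UUO kidneys.

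In the Myc cKO the 23 called genes comprised 4 of pyruvate entry (Mpc1, Mpc2, Pdha1, Pdhb), 14 of the cycle (Idh1, the 3 Idh3 genes, Dld, the 3 succinyl-CoA ligase genes, the 4 succinate dehydrogenase genes, Fh1 and Mdh1) and 5 of the branched-chain and propionate set (Dbt, Mccc1, Pcca, Pccb, Mut). Pcca had the smallest adjusted p, with a log2 fold change of 0.92 (SE 0.15, adjusted p 0.00334), and Mccc1 and Mdh1 the largest changes, 1.03 (SE 0.24, adjusted p 0.0134) and 1.02 (SE 0.20, adjusted p 0.00632), or 2.05-fold and 2.02-fold. The next were Idh3a at 0.63 (adjusted p 0.00821), Suclg1 at 0.79 (0.00917) and Dld at 0.73 (0.00928). Sdhb, Sdha, Sdhc and Sdhd, the 4 subunits of succinate dehydrogenase, all passed, with 0.83, 0.67, 0.54 and 0.66. Mpc1 was at 0.90 (SE 0.26, adjusted p 0.0367).

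Members that did not pass in the Myc cKO include Cs at 0.03 (SE 0.13, adjusted p 0.902), Dlat at 0.20 (SE 0.14, adjusted p 0.385), Got2 at 0.21 (SE 0.18, adjusted p 0.51) and Bckdhb at 0.22 (SE 0.20, adjusted p 0.513), the smallest values in the line. Ogdh, called in the Twist cKO, was at 0.35 (SE 0.16, adjusted p 0.164). For Myc against Twist cKO that gene differed by -0.35 (adjusted p 0.261), which did not pass the test.

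The Myc cKO calls rested largely on 2 kidneys. Without WT UUO kidney 1 there were 6 called members (Idh1, Idh3a, Dld, Suclg1, Mdh1 and Pcca) and without Myc cKO kidney 3 there were 5 (Idh3a, Dld, Suclg1, Mdh1 and Pcca). With both left out, a setting added after the data were seen, no member was called, the median was 0.35 and 33 of 37 estimates were positive. When only WT UUO and Myc cKO kidneys entered the fit, no member was called either, with a lowest adjusted p of 0.0787. The share of all genes called in these fits is not given. Without Myc cKO kidney 3 the estimates of Cs, Bckdha and Got2 turned negative, at -0.12, -0.01 and -0.11.

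Some cell type markers and other features also differed in the knockouts, and others overlapped WT UUO. Tubular injury sums were 8074 to 10051 CPM in Twist, 8138 to 9449 in Snail and 8709 to 12125 in Myc cKO against 8752 to 10259. Lymphocyte sums of 4.78 to 13.4, 4.63 to 13.5 and 4.27 to 13.0 CPM overlapped 5.65 to 9.79 in WT UUO. Endothelial sums were 376 to 425, 417 to 439 and 377 to 436 CPM against 429 to 617, with only Twist cKO wholly below. Proximal tubule markers were higher for 8 of 12 genes in Twist, 1 of 12 in Snail and 8 of 12 in Myc cKO against WT UUO, with summed levels of 3121 to 5314, 2189.9 to 3511 and 3113 to 5562 CPM against 853 to 2111. Loop and distal tubule markers were higher for 2, 0 and 1 of 8 genes, with sums of 2262 to 3150, 1290 to 1998 and 888 to 2370 CPM against 898 to 1951 in WT UUO, and collecting duct markers for 1, 0 and 1 of 6, with sums of 115 to 184, 75.0 to 113 and 70.0 to 197 against 73.3 to 96.9. For both lists the Twist cKO sums lay wholly above WT UUO, and Pvalb was at 0 in a library of every group. Fibroblast and myofibroblast markers were lower for 4, 1 and 5 of 8 genes, with sums of 1897 to 2209, 2644 to 3649 and 815 to 3184 CPM against 3832 to 7390 in WT UUO and no marker at 0. Macrophage markers were lower for 3, 0 and 2 of 7 genes, with sums of 419 to 541, 484 to 684 and 491 to 666 CPM. In WT UUO their sums were 669 to 1087, and only the Snail cKO range overlapped it. WT UUO kidney 1 had the lowest mean of the proximal markers (-5.10 log2 units from the healthy mean, against -2.93 and -3.72) and the highest of the urothelial markers (7.41 against 5.16 and 3.66). Myc cKO kidney 3 had the highest proximal mean of its group (-1.62 against -2.30 and -2.55) and the lowest fibroblast mean (1.17 against 2.82 and 2.09). Urothelial sums ran from 25.6 to 363 CPM in WT UUO and from 1.93 to 54.7 in Myc cKO, with Upk2 and Krt5 at 0 in some libraries. The 13 mitochondrially encoded messages were higher for 4, 1 and 9 genes in the 3 lines. The part of these features in the members' levels was not tested.

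Every member was lower in every knockout than in contralateral kidney with TMM scaling, and under library totals Pdhx turned positive in all 3 lines and Cs in Twist and Snail cKO. All 37 were called lower in Twist cKO (background 21.4% lower), Snail cKO (22.8%) and Myc cKO (22.5%), with medians of -1.34, -1.49 and -1.23. These comparisons share the contralateral kidneys with each other and with the WT UUO comparison, where the median was -1.81. In the Myc cKO the values ran from -2.05 for Ivd to -0.65 for Pdhx. By set, the branched-chain and propionate genes had medians of -1.68, -1.89 and -1.59 in the 3 lines, the cycle -1.33, -1.45 and -1.17, and pyruvate entry -1.16, -1.34 and -1.06.

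Between knockouts no member was called in either direction (edgeR), the test of the difference between lines. In Twist against Snail cKO the background was 0.0855% higher and 0.0855% lower, in Myc against Twist cKO 0.442% and 2.55%, and in Myc against Snail cKO 0.523% and 1.92%. At an unadjusted p under 0.05 there were 1, 2 and 11 members, with no share of all genes given at that threshold. Median differences were 0.20, 0.11 and 0.26. In Myc against Snail cKO 16 members did not overlap and were higher in Myc, against 10.1% of genes, led by Dld at 0.48 (SE 0.15, adjusted p 0.112) and Pcca at 0.48 (SE 0.15, adjusted p 0.112). DESeq2 and the fit with sex as a covariate each called 2 members higher there, with no share of all genes given.

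The neighbouring steps of the pathway were read from lists of genes that are no members. Of the genes named from them below, 12 were called in Twist cKO against WT UUO. Of these, 0 were still called without WT UUO kidney 1, and only Ppargc1b without Twist cKO kidney 2. Without Twist cKO kidney 1 there were 3, and without WT UUO kidney 2 there were 5. In Myc cKO 18 were called, of which 3 (Aldh6a1, Acly and Esrrg) were still called without WT UUO kidney 1 and 4 (Aldh6a1, Pck2, Acly and Esrrg) without Myc cKO kidney 3. Of 7 kinases, phosphatases and regulators of pyruvate dehydrogenase, 4 fell in WT UUO against healthy kidney and 1 rose. Among those that fell were the kinase Pdk2, which switches the complex off, at -2.24 ± 0.25 (log2, SE), the phosphatase Pdp2, -2.19 ± 0.25, and the phosphatase regulator Pdpr, -1.09 ± 0.12. The phosphatase Pdp1 rose by 0.85 ± 0.15. The kinase Pdk3 fell by 2.83-fold, so that kinases and a phosphatase were among the genes that fell. Against WT UUO, Pdk2 was higher in Twist cKO, 0.93 (SE 0.24, adjusted p 0.0394), and Pdp2 and Pdpr in Myc cKO, 0.77 (SE 0.24, adjusted p 0.0477) and 0.40 (SE 0.11, adjusted p 0.0372). With 1 kidney left out, Pdk2 was never called (adjusted p 0.0569 to 0.172), and Pdp2 only without Myc cKO kidney 1. Pdpr was lost without WT UUO kidney 1, WT UUO kidney 2 or Myc cKO kidney 3.

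In branched-chain breakdown 4 of 5 entry and control genes fell, among them the mitochondrial transaminase Bcat2 at -1.61, the complex's kinase Bckdk at -0.76 and its phosphatase Ppm1k at -1.81, and the mitochondrial carrier Slc25a44 at -0.88. All 13 genes of the later steps fell, with a median of -1.75. By smallest p they were led by Hibadh, the hydroxyisobutyrate dehydrogenase of the valine route, at -2.66 ± 0.19, and Mcee, the methylmalonyl-CoA epimerase between Pcca and Mut, at -1.85 ± 0.14. The largest falls were those of Aldh6a1, methylmalonate semialdehyde dehydrogenase, also of that route, at -3.51 ± 0.32, and Acat1, the mitochondrial acetoacetyl-CoA thiolase, at -3.09 ± 0.46. Against WT UUO, 2 of the 13 were higher in Twist, 0 in Snail and 9 in Myc cKO, the last count falling to 2 without WT UUO kidney 1 or Myc cKO kidney 3. Aldh6a1 rose by 1.24 ± 0.30 in Twist and 1.49 ± 0.30 in Myc cKO, where the adjusted p was 0.00748.

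Of 16 genes that fill or drain the cycle or carry its intermediates, 11 fell in WT UUO against healthy kidney and 2 rose. Pck1, the cytosolic phosphoenolpyruvate carboxykinase of gluconeogenesis, fell by 38.5-fold, from 3129, 3136 and 2601 CPM in healthy kidneys to 59.2, 88.2 and 82.8 in WT UUO. Pcx, pyruvate carboxylase, changed by -3.17 ± 0.45, the dicarboxylate carrier Slc25a10 by -2.76 ± 0.28, the oxoglutarate carrier Slc25a11 by -1.35 ± 0.14 and the aspartate-glutamate carrier Slc25a13 by -2.24 ± 0.19. Going the other way were Pck2, the mitochondrial carboxykinase, at 1.08 (SE 0.10, adjusted p 5.24e-07), and the malic enzyme Me2 at 0.59 (SE 0.20, adjusted p 0.0211). Me2 was no longer called without healthy kidney 2, WT UUO kidney 1 or WT UUO kidney 2 (adjusted p 0.0938, 0.0616 and 0.0589). Pck2 read 12.8, 9.52 and 11.9 CPM in healthy, 26.6, 21.7 and 24 with WT UUO, then 17.7, 17.0 and 16.5 in Myc cKO kidneys. It was lower in Myc cKO than in WT UUO, at -0.50 (SE 0.10, adjusted p 0.00735), as was Acly, which splits citrate in the cytosol, at -0.53 (SE 0.10, adjusted p 0.00535). Pck1, Pcx, Me3, Slc25a10 and Slc25a13 were higher than in WT UUO in both the Twist and the Myc cKO, with Pck1 at 2.09 and 2.48. In the 3 Myc cKO kidneys Pck1 was at 182, 279 and 821 CPM, and without kidney 3 its value was 1.58 (adjusted p 0.0534) and that of Pcx 0.81 in place of 1.51 (adjusted p 0.206).

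Lactate genes were mixed. Ldhb fell (-0.90 ± 0.23) in WT UUO against healthy kidney, as did the carrier Slc16a7 (-2.81 ± 0.31), the lactate exporter Slc16a3 rose (3.03 ± 0.49), and Ldha was at -0.40 (SE 0.24, adjusted p 0.168). Slc16a3 was lower than in WT UUO in Twist cKO, -1.89 ± 0.47, and in Myc cKO, -1.75 ± 0.47. Its level in WT UUO was 21.5, 7.32 and 5.06 CPM, highest in kidney 1, and without that kidney the rise over healthy was 2.17 (adjusted p 0.000228) and the knockout values -1.01 (Twist, adjusted p 0.209) and -0.87 (Myc, adjusted p 0.186). Of 5 tested genes for lipoylation and succinate dehydrogenase assembly, 4 fell, led by Sdhaf1 at -1.16 ± 0.24 and Lias, which makes the lipoyl group of the dehydrogenase complexes, at -1.14 ± 0.15.

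Regulators of mitochondrial biogenesis fell for 11 of 12 genes. The coactivator Ppargc1a changed by -2.15 ± 0.27, the nuclear receptors Esrra by -1.73 ± 0.14 and Ppara by -2.76 ± 0.36, and the mitochondrial transcription factor Tfam by -1.03 ± 0.12, while Nrf1 stood at 0.22 (SE 0.10, adjusted p 0.0581). Against WT UUO, 3 of the 12 were higher in Twist cKO (Ppargc1b, Esrra and Esrrg), 0 in Snail cKO and 4 in Myc cKO (Ppargc1a, Ppargc1b, Esrrg and Ppara). Ppargc1a was at 1.17 (SE 0.27, adjusted p 0.0128) and Ppara at 1.27 (SE 0.35, adjusted p 0.0287) in Myc cKO. Ppara read 19.0, 33.7 and 74.8 CPM in those kidneys against 15.5, 22.1 and 15.2 in WT UUO, and without Myc cKO kidney 3 its value was 0.58 (adjusted p 0.165) and that of Ppargc1a 0.78 (adjusted p 0.0644). All 13 mitochondrially encoded messages fell in WT UUO against healthy kidney, with a median of -3.70, below the value of any nuclear member.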

How the data were processed

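Counts per gene were deposited by the authors as 1 table of raw read counts. HTSeq, DESeq2, bcl2fastq 1.8.4 and mm10 are named in the submitters' processing notes, and the aligner, annotation and strand setting were not given in the sources used here. Libraries came from a stranded whole-transcriptome kit, per the labels' protocols. The deposited normalized table and 6 columns that match no sample were not used.

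One edgeR (4.0.16, R 4.3.3) quasi-likelihood fit with robust dispersion, filterByExpr and TMM covered all 18 libraries (12 residual degrees of freedom), with Benjamini-Hochberg adjustment over 21050 genes and a threshold of 0.05. SE is the absolute log2 fold change divided by the root of F. Log2 CPM used a prior count of 2. No 2 libraries of the same group agreed within sampling noise. The fit was checked on simulated data. Exon lengths came from GENCODE M21. DESeq2 1.42.0, limma 3.58.1, other scalings, filters and covariates (Cre, and sex read from Ddx3y and Xist) were alternatives. Counting error is small here, and spread between kidneys limits precision.

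Every library value is given for the extremes of each set, for up to 8 called members per knockout comparison and for 3 related pairs. Of genes that are no members, those among the 4 smallest p of their list in WT UUO against healthy kidney, or called the other way, were named by rule. The rest, among them Aldh6a1, Acat1, Pck1, Pcx, Ppargc1a and Ppara, were chosen after their values were seen. Members, lists and this rule were chosen with earlier results of these data known.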

Additional observations from a re-analysis of the deposited data

How the results depend on the processing

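The fall of all 37 members in WT UUO against healthy and contralateral kidney, and in each knockout against contralateral kidney, kept its count in every fit that left out 1 kidney. Library totals alone, which leave in the mitochondrial ribosomal RNA, moved the median of all genes by 1.07 in WT UUO against healthy kidney and the share of calls that were higher from 51.8% to 90.5%. That share went from 51.4% to 90.6% against contralateral kidney, from 56.3% to 38.2% in Twist, 54.0% to 43.6% in Snail and 43.4% to 13.9% in Myc cKO against WT UUO, from 50.1% to 94.2%, 51.0% to 93.1% and 49.5% to 92.6% in those lines against contralateral kidney, from 50% to 36.7% in Twist against Snail cKO and from 21.4% to 10.6% in Myc against Snail cKO. In WT UUO against healthy kidney the median of the members was -0.84, and 36 of 37 estimates stayed negative. There 33 members were still called lower and 1 was called higher, Cs at 0.376. Of all genes, 7.39% were called lower and 70.1% higher under that scaling. Against contralateral kidney the same scaling turned Pdhx to 0.0924 (Twist), 0.107 (Snail) and 0.127 (Myc) and Cs to 0.0164 (Twist) and 0.0369 (Snail). In Myc cKO against WT UUO it gave -0.0796 for Dlat, -0.242 for Cs, -0.0618 for Bckdhb and -0.0837 for Got2, and in Snail cKO -0.0232 for Bckdhb, which was -0.0307 without WT UUO kidney 2. Upper-quartile scaling moved the median of all genes by 0.106 to 0.167 in obstructed against unobstructed kidneys, and the share of higher calls to 61.5%, 61.2% and 64.1% in the 3 knockouts against contralateral kidney, 66.3% from 86.8% in contralateral against healthy kidney, 33.1% from 14.8% in Myc against Twist cKO and 40.9% in Myc against Snail cKO.

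Members called higher in Twist cKO against WT UUO numbered 7, 19 by DESeq2 and 18 with sex as a covariate. They numbered 7 with only the 2 groups in the fit, 4 of them the same, and from 0 to 9 with 1 kidney left out. In Myc cKO they numbered 23, 0 with only the 2 groups in the fit, from 5 to 27 with 1 kidney left out, and 0 without WT UUO kidney 1 and Myc cKO kidney 3 together. In that last fit Dlat was at -0.0304, Cs at -0.183, Bckdha at -0.0760 and Got2 at -0.166. Cs was at -0.0317 with sex as a covariate, -0.0175 without WT UUO kidney 1 and -0.117 without Myc cKO kidney 3, where Bckdha was at -0.0125 and Got2 at -0.110. In Myc against Snail cKO, 0 became 2 by DESeq2 and 2 with sex as a covariate. No share of all genes called is given for DESeq2, for the sex covariate, for the fits of only the 2 groups or for fits with a kidney left out. With 1 kidney left out or both, the highest values of these genes were 0.288 for Dlat, 0.115 for Cs, 0.588 for Bckdha and 0.356 for Got2 in Myc cKO, and 0.229 for Bckdhb in Snail cKO. The cause of these shifts was not tested, other than that each fit with a kidney left out holds fewer samples. No paired analysis was made because the labels give no replicate numbers and do not say which kidneys share an animal. Contralateral and WT UUO kidneys had the same order of Cre label and sex, so the same animals may have given both. The test between these groups treats the kidneys as separate.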
